A study of Homo sapiens with 12 samples.

Results

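Keratins, claudins, a desmosomal plaque protein, a tight junction scaffold and an epithelial splicing regulator were measured as RNA in MDA-MB-231, a human breast cancer line of the triple-negative kind with a mesenchymal-like character. The 10 genes were chosen by symbol: the keratins KRT7, KRT8, KRT18 and KRT19, the claudins CLDN2, CLDN4 and CLDN7, desmoplakin (DSP), zonula occludens 1 (TJP1) and ESRP2. All 10 were among the 16384 genes in the count tables and all 10 passed the filter on low counts, which 12645 genes passed. The 12 libraries fell into 4 groups of 3, all of the same line and labelled wild type. The Combination group received CAR at 10 µmol/L with JQ-1 at 25 µmol/L, the JQ1 group received JQ-1 alone at 25 µmol/L, the CAR group received CAR alone at 10 µmol/L, and the DMSO group received the vehicle. CAR is cardamonin, a plant chalcone named in the series title, and JQ-1 displaces BET bromodomain proteins from acetylated chromatin. The title places the study in the question of invasion and metastasis, and the comparisons ask how each agent and both together altered epithelial genes.

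Epithelial cells carry intermediate filaments made of paired keratins, a type II keratin such as KRT7 or KRT8 with a type I keratin such as KRT18 or KRT19. Desmosomes anchor these filaments at the membrane through desmoplakin, and tight junctions seal the space between cells with strands of claudins that bind the scaffold TJP1. ESRP2 directs the epithelial pattern of alternative splicing. In mesenchymal-like carcinoma cells these genes are in general low while vimentin is high.

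Total counts per library ran from 17449715 to 19754456. The identity of the line was checked on its markers. Levels are in CPM, each count divided by its library's total and scaled by 10 to the power of 6. The mesenchymal filament gene vimentin (VIM) averaged 519 CPM in Combination, 873 CPM in JQ1, 2199 CPM in CAR and 2258 CPM in DMSO, so it was itself lower in Combination and JQ1 (adjusted p = 6.47e-21 and 6.44e-18). The other 3 mesenchymal markers did not all follow it. ZEB1 changed by -0.02 in Combination (adjusted p = 0.778), -0.27 in JQ1 and 0.39 in CAR on the log2 scale, FN1 by -0.53 in Combination, -0.09 in JQ1 (adjusted p = 0.328) and -0.49 in CAR, and SNAI2 by -0.20 in Combination, -0.80 in JQ1 and 0.08 in CAR (adjusted p = 0.286). Of 5 markers listed as low or absent in such a line, E-cadherin (CDH1), oestrogen receptor (ESR1) and progesterone receptor (PGR) stood at 0 to 0.686 CPM in all 12 libraries. The other 2 were detected: ERBB2 averaged 133.6 CPM in Combination, 149 CPM in JQ1, 102 CPM in CAR and 120.1 CPM in DMSO, and EPCAM averaged 2.96 CPM in Combination, 3.18 CPM in JQ1, 14.2 CPM in CAR and 16.7 CPM in DMSO. A pair of libraries stood apart. In DMSO replicate 3 the deviation from the other DMSO libraries fell with transcript length (Spearman's rho -0.757, a description across 6056 genes), and this library held the highest DMSO values of KRT8, KRT18 and KRT19 and the lowest of DSP and TJP1. Results were recomputed without this library and with a correction for transcript length. The correction was fitted against the mean of all 12 libraries, so it also removes a length trend that a treatment group shares. For KRT19 in CAR against DMSO the correction gave a log2 change of -0.102, and leaving out DMSO replicate 3 gave 0.033. For KRT8 in JQ1 against DMSO the values were 0.0984 and 0.0919. In Combination replicate 1, 17 of 17 hepatocyte markers were at their highest of the series, among them albumin (ALB), which had 1429 counts there and between 4 and 10 elsewhere. Leukocyte markers summed to at most 0.822 CPM and endothelial markers to at most 1.21 CPM in any library.

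Promoter sequence was at hand for 6 of the 10 genes (KRT8, CLDN2, CLDN4, CLDN7, DSP and TJP1), as 11 windows of 250 bases before to 50 after an annotated start (RefSeq, GRCh38.p14). The windows below are those that held at least 2 E-boxes or an AP-1 motif. They belong to CLDN7 and DSP, which were lower in Combination and JQ1, and to CLDN4, which was higher in Combination and lower in JQ1. Capitals mark the E-box CAGGTG, read on both strands (also as CACCTG), which factors such as ZEB1 and SNAI2 are known to bind, and the AP-1 motif TGACTCA, also read as TGAGTCA. The windows are CLDN7 at chr17:7262429-7262728 on the minus strand, DSP at chr6:7541421-7541720 on the plus strand and CLDN4 at chr7:73830746-73831045 on the plus strand, each written 5′ to 3′ on its own strand.
CLDN7: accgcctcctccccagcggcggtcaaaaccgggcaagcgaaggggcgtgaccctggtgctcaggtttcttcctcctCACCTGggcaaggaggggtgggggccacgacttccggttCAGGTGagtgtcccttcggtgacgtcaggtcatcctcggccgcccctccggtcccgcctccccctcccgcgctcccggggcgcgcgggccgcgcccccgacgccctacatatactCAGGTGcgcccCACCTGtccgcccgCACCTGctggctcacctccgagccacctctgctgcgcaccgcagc
DSP: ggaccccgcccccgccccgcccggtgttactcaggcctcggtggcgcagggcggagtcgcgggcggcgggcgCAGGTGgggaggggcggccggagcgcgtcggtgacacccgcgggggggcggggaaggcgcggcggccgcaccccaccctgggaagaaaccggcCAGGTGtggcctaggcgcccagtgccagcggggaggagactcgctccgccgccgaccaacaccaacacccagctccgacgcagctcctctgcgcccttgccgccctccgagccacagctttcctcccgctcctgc
CLDN4: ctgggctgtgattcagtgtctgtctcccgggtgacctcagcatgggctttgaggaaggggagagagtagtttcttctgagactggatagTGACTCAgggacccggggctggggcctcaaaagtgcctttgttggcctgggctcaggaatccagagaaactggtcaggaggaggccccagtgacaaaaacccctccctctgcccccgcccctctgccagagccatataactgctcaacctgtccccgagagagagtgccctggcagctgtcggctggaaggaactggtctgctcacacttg
The CLDN7 window, at the second of its annotated starts, held 5 E-box matches and the DSP window 2, and the CLDN4 window held 1 AP-1 match. Of the 35116 promoter windows in the table, 20.6% held at least 1 E-box, 3.49% at least 2 and 0.094% at least 5, and 4.95% held the AP-1 motif. Of the 11 windows of these genes 3 held an E-box and 1 the AP-1 motif, and the window at the other CLDN7 start held neither. The remaining E-box was in a window of TJP1, a gene that was higher in Combination and JQ1, and neither window of CLDN2, the gene that fell furthest, held an E-box or the AP-1 motif. Another motif that was searched, the antioxidant response element TGACNNNGC (N for any base), is not marked above. It was in 13.3% of all windows and in 2 of the 11, the window at the other CLDN7 start and a window of CLDN2. The motifs were picked after the levels were known, and a match is a string of letters, not a measured binding site.

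Against DMSO, Combination lowered 8 of the 10 genes and raised 2 (CLDN4 and TJP1). JQ1 alone lowered 7 and raised 2 (KRT19 and TJP1), and CAR alone lowered 5 and raised 2 (CLDN4 and ESRP2). The deepest falls under Combination and JQ1 were in CLDN2, CLDN7, ESRP2, KRT7 and DSP. Calls are at a Benjamini-Hochberg adjusted p under 0.05 across all tested genes. These agents moved most of the transcriptome. In Combination against DMSO 85.4% of all tested genes were called, 42.6% higher and 42.8% lower. In JQ1 against DMSO 83.7% were called, 41.5% higher and 42.2% lower. In CAR against DMSO 57.3% were called, 27.3% higher and 30.1% lower. With total count scaling the share of higher among called genes was 39.3% in place of 49.9% in Combination against DMSO and 35.7% in place of 47.6% in CAR against DMSO. The median log2 change of the 10 genes was -1.39 in Combination, -0.82 in JQ1 and -0.14 in CAR, beside 0.00, -0.01 and -0.02 over all tested genes. The 3 comparisons share their DMSO libraries. In bulk RNA, fewer cells that express a gene and less of its RNA per cell cannot be told apart.

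Levels are given as CPM of the library total, while fold changes were fitted with TMM scaling, which estimates library size from genes with typical ratios. Scaling by totals instead shifts each log2 change by -0.21 in Combination against DMSO, -0.12 in JQ1 against DMSO and -0.06 in CAR against DMSO, so a small change depends on this choice. Changes are relative to the TMM scale, as log2 fold change ± SE, and levels are mean ± SD with n = 3. Nothing in the labels says that replicates were separate cultures, so the p-values rest on a spread that may be technical.

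**Figure D1:**
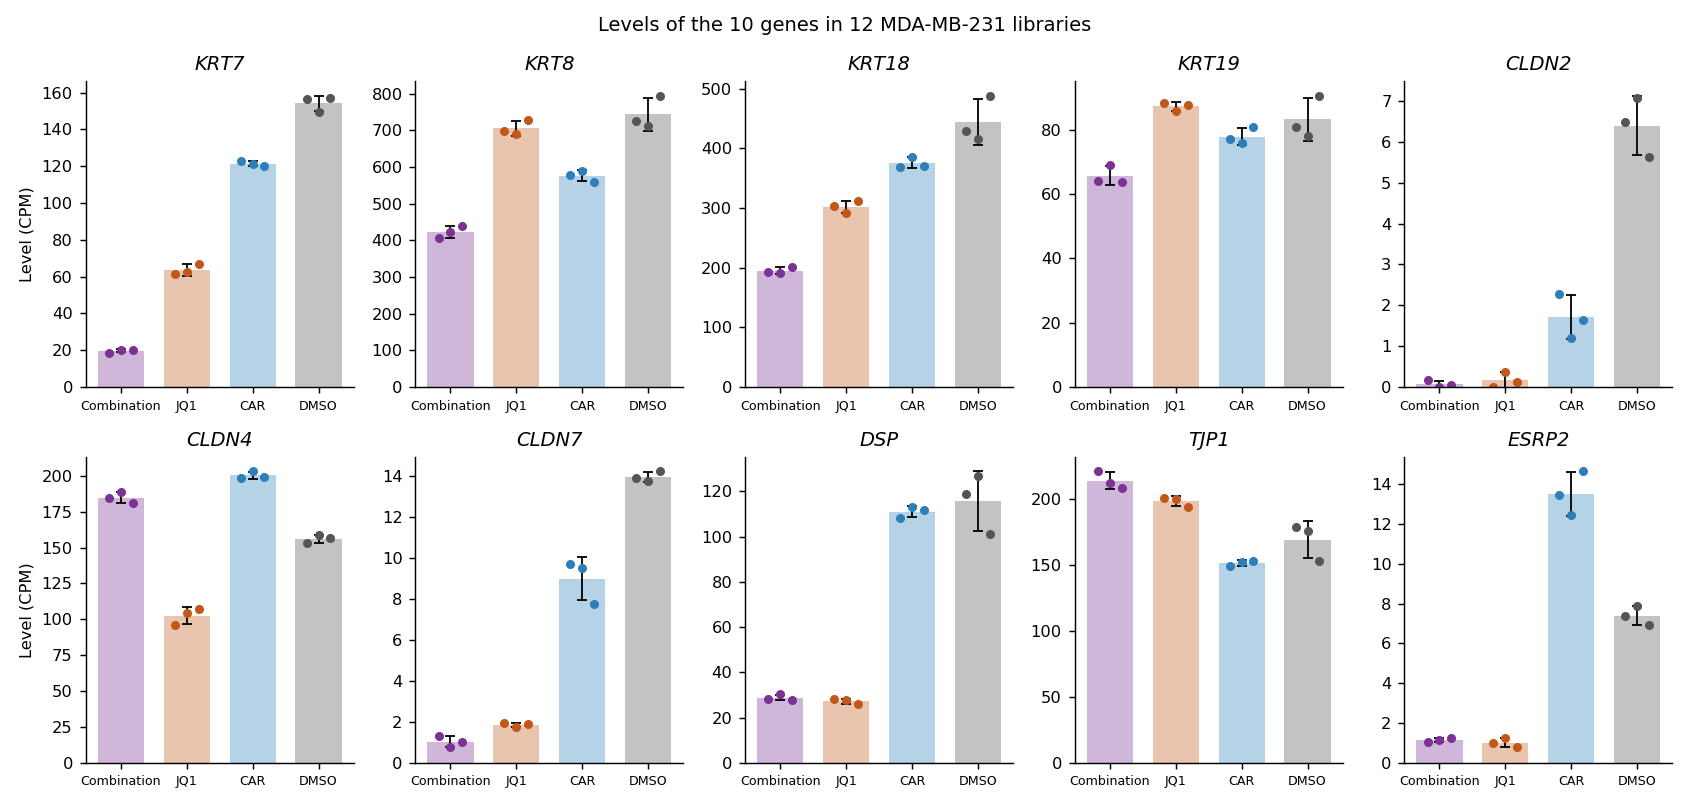
Level of each gene in CPM (vertical axis from 0) in Combination, JQ1, CAR and DMSO, with bars for means, error bars for SD (n = 3) and points for single libraries. KRT7 and CLDN7 are lowest in Combination, then JQ1, then CAR, CLDN2 is near 0 in both Combination and JQ1, CLDN4 is lowest in JQ1, and ESRP2 is highest in CAR.

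KRT8 and KRT18 form the filament pair of simple epithelia, and they did not move in step. KRT8 (chromosome 12, 52897187 to 52949954, minus strand, GRCh38) stood at 406, 422 and 440.1 CPM in Combination, at 697, 691 and 728 CPM in JQ1, at 578, 590.3 and 559.9 CPM in CAR, and at 725, 712 and 795 CPM in DMSO. Combination and CAR lay below every DMSO library, while JQ1 overlapped DMSO. The fitted change of KRT8 was -0.61 ± 0.04 in Combination (adjusted p = 8.2e-12) and -0.30 ± 0.04 in CAR (adjusted p = 2.48e-06). In JQ1 it was 0.04 ± 0.04 (adjusted p = 0.344), a value whose sign turned with total count scaling (-0.08) and upper-quartile scaling (-0.02) and which was called higher without DMSO replicate 3 (0.09, adjusted p = 0.0031).

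KRT18 (chromosome 12, 52948871 to 52952901, plus strand) stood at 192, 191 and 202 CPM in Combination, at 304, 291 and 311 CPM in JQ1, at 369, 386 and 371 CPM in CAR, and at 428, 416 and 488 CPM in DMSO. No drug library reached the lowest DMSO library. The change was -0.98 ± 0.05 in Combination (adjusted p = 1.88e-14), -0.44 ± 0.05 in JQ1 (adjusted p = 1.77e-08) and -0.18 ± 0.05 in CAR (adjusted p = 0.0028). Without DMSO replicate 3 the change in CAR was -0.11 and still called (adjusted p = 0.00207).

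The ratio of KRT8 counts to KRT18 counts within a library, which no scaling can alter, was higher in Combination and JQ1 and lower in CAR than in DMSO. It was 2.16 ± 0.0499 in Combination, 2.34 ± 0.04 in JQ1, 1.53 ± 0.0283 in CAR and 1.68 ± 0.0451 in DMSO. The groups did not overlap in Combination, JQ1 or CAR against DMSO, and in each case an exact two-sided permutation test gave p = 0.1, the smallest that 3 against 3 libraries allow. The gene bodies of KRT8 and KRT18 overlap by 1084 bases on opposite strands in GENCODE 29, and whether counting used strand is not given in the sources used here. GENCODE 29 also lists 50 processed pseudogenes of KRT8 and 68 of KRT18, and the count tables list 0 of them, so reads shared with these copies may have been dropped. Hepatocytes express KRT8 and KRT18. Combination replicate 1, whose hepatocyte markers summed to 188 CPM against 9.17 CPM in the lowest Combination library, held neither the highest KRT8 nor the highest KRT18 of its group, and the 4 keratins together came to 681 CPM there and to 703 and 726 CPM in the other Combination libraries. Whether liver transcripts added to its keratin counts was not tested, and its keratin level without them is not known. The sum of the 4 keratins was 1151, 1130 and 1194 CPM in JQ1, 1147, 1173 and 1132 CPM in CAR and 1391, 1355 and 1531 CPM in DMSO.

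**Figure D2:**
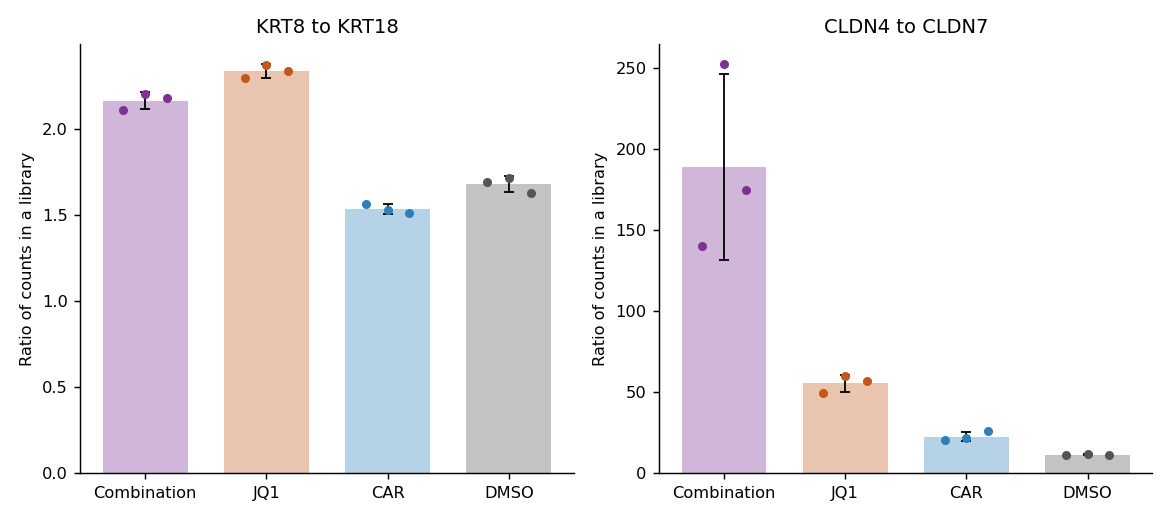
Ratio of KRT8 to KRT18 counts and of CLDN4 to CLDN7 counts within each library (vertical axes from 0), with bars for means, error bars for SD (n = 3) and points for libraries. Combination and JQ1 lie above CAR and DMSO in both ratios, at mean KRT8 to KRT18 ratios of 2.16 in Combination and 2.34 in JQ1, against 1.53 in CAR and 1.68 in DMSO.

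KRT7, a type II keratin of ducts and glands, had the largest fall of KRT7, KRT8, KRT18 and KRT19 in Combination and in JQ1. It stood at 18.8, 20.2 and 20.4 CPM in Combination, at 61.4, 62.3 and 67.1 CPM in JQ1, at 123, 121 and 120.3 CPM in CAR, and at 156, 149.6 and 157 CPM in DMSO. The 4 groups did not overlap. The fall was 6.74-fold in Combination (log2 -2.75 ± 0.05, adjusted p = 1.22e-21), 2.23-fold in JQ1 (-1.16 ± 0.04, adjusted p = 2.04e-16) and 1.22-fold in CAR (-0.28 ± 0.04, adjusted p = 6.52e-06). KRT7 (chromosome 12, 52232520 to 52252186, plus strand) overlaps KRT86 by 2887 bases on the same strand, where reads could be shared.

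KRT19, a type I keratin of simple epithelia, moved little. Its level was 64.1, 69.1 and 63.9 CPM in Combination, 88.4, 85.8 and 87.6 CPM in JQ1, 77, 75.9 and 80.7 CPM in CAR, and 81, 78 and 90.6 CPM in DMSO. JQ1 and CAR overlapped DMSO, and Combination lay below it. The change was -0.13 ± 0.05 in Combination (adjusted p = 0.0227), 0.19 ± 0.05 in JQ1 (adjusted p = 0.00204) and -0.03 ± 0.05 in CAR (adjusted p = 0.628). The call in Combination was lost without DMSO replicate 3 (-0.07), without Combination replicate 1 (-0.11) and without Combination replicate 3 (-0.11), and the call in JQ1 was lost with total count scaling (0.07). In CAR the sign turned without DMSO replicate 3 (0.03), and with a correction for transcript length it was called lower (-0.10).

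Of the 3 claudins CLDN2 and CLDN7 fell under each treatment, while CLDN4 rose in Combination and CAR. CLDN2, which forms cation-permeable pores and lies on chromosome X (106900164 to 106930861, plus strand), was nearly lost: its counts were 3, 0 and 1 in Combination, 0, 7 and 2 in JQ1, 45, 23 and 31 in CAR, and 123, 125 and 107 in DMSO. Every JQ1 and Combination library was below every CAR library, and every CAR library below every DMSO library. Over the summed counts, scaled by library totals, CLDN2 was 88.1-fold lower in Combination than in DMSO (95% exact counting interval 34.1 to 325). By the same measure it was 38.9-fold lower in JQ1 (20.2 to 85.7) and 3.71-fold lower in CAR (2.96 to 4.68). These intervals leave out the spread between libraries. The fitted falls on the TMM scale were 70.5-fold in Combination, 34.5-fold in JQ1 and 3.55-fold in CAR. All 3 were called lower (adjusted p = 1.67e-10, 2.84e-10 and 3.15e-06). The fitted values rest on few counts: in Combination against DMSO the log2 change was -6.14, and -7.38 without Combination replicate 1, and in JQ1 against DMSO it was -5.11, and -6.58 without JQ1 replicate 2 or -4.51 without JQ1 replicate 1. CLDN2 lies across MORC4, which is on the opposite strand.

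CLDN7, a barrier-forming claudin on chromosome 17 (7259903 to 7263983, minus strand), stood at 1.32, 0.749 and 1.04 CPM in Combination, at 1.95, 1.74 and 1.89 CPM in JQ1, at 9.72, 9.5 and 7.78 CPM in CAR, and at 13.9, 13.8 and 14.2 CPM in DMSO. The 4 groups did not overlap. It fell 11.7-fold in Combination (log2 -3.54 ± 0.15, adjusted p = 1.21e-15), 6.9-fold in JQ1 (-2.79 ± 0.13, adjusted p = 1.09e-14) and 1.48-fold in CAR (-0.57 ± 0.10, adjusted p = 3.78e-05).

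CLDN4, a claudin of tight epithelia on chromosome 7 (73799542 to 73832693, plus strand), went the other way in Combination and CAR. It stood at 184, 189 and 181 CPM in Combination, at 96.3, 104 and 107 CPM in JQ1, at 198, 203 and 199 CPM in CAR, and at 153, 159 and 157 CPM in DMSO. JQ1 lay below DMSO, and Combination and CAR lay above it. The rise was 1.37-fold in Combination (log2 0.45 ± 0.04, adjusted p = 1.08e-09) and 1.34-fold in CAR (0.42 ± 0.04, adjusted p = 1.92e-08), and the fall in JQ1 was 1.4-fold (-0.49 ± 0.04, adjusted p = 5e-10). Within single libraries the count of CLDN4 was 140.1 to 252 times that of CLDN7 in Combination, 49.5 to 59.8 times in JQ1, 20.4 to 25.6 times in CAR and 11 to 11.5 times in DMSO.

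DSP, the plakin that ties keratin filaments to the desmosomal plaque (chromosome 6, 7541575 to 7586717, plus strand), fell with JQ-1 whether or not CAR was present. It stood at 28.3, 30.2 and 27.9 CPM in Combination, at 28.1, 27.5 and 25.9 CPM in JQ1, at 108, 113 and 112 CPM in CAR, and at 119, 127 and 101 CPM in DMSO. Combination and JQ1 overlapped each other and lay far below CAR and DMSO, which overlapped. The fall was 3.47-fold in Combination (log2 -1.80 ± 0.07, adjusted p = 4.45e-15) and 3.91-fold in JQ1 (-1.97 ± 0.07, adjusted p = 1.35e-15). In CAR the change was 0.01 ± 0.06 (adjusted p = 0.947), with the sign turned under each other scaling (0.00, -0.06 and -0.03 with size factors, totals and upper quartiles) and -0.08 without DMSO replicate 3.

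TJP1, the scaffold that links claudins to actin (chromosome 15, 29699367 to 29968865, minus strand), rose with JQ-1. It stood at 221, 212 and 208 CPM in Combination, at 201, 199.9 and 194 CPM in JQ1, at 149, 152 and 152 CPM in CAR, and at 178, 176 and 153 CPM in DMSO. Every Combination and JQ1 library lay above every DMSO library. The rise was 1.46-fold in Combination (log2 0.55 ± 0.05, adjusted p = 6.33e-10) and 1.27-fold in JQ1 (0.35 ± 0.05, adjusted p = 8.02e-07). In CAR, whose libraries lay just below the lowest DMSO library, the change was -0.09 ± 0.05 (adjusted p = 0.103), and it was called lower without DMSO replicate 3 (-0.16, adjusted p = 4.12e-05) and with total count or upper-quartile scaling (-0.16 and -0.13).

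ESRP2, the epithelial splicing regulator (chromosome 16, 68229111 to 68238102, minus strand), took opposite directions under the single agents. It stood at 1.04, 1.12 and 1.26 CPM in Combination, at 1, 1.25 and 0.802 CPM in JQ1, at 13.5, 12.4 and 14.7 CPM in CAR, and at 7.38, 7.87 and 6.94 CPM in DMSO. Combination overlapped JQ1, and no other pair of groups overlapped. ESRP2 fell 5.59-fold in Combination (log2 -2.48 ± 0.16, adjusted p = 1.65e-12) and 6.63-fold in JQ1 (-2.73 ± 0.16, adjusted p = 5.05e-13), and rose 1.91-fold in CAR (0.93 ± 0.10, adjusted p = 6.04e-08). Its paralogue ESRP1 was too low to be tested, at 0.0548 CPM or less in every Combination and JQ1 library and at 1.16 CPM at most in DMSO.

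**Figure D3:**
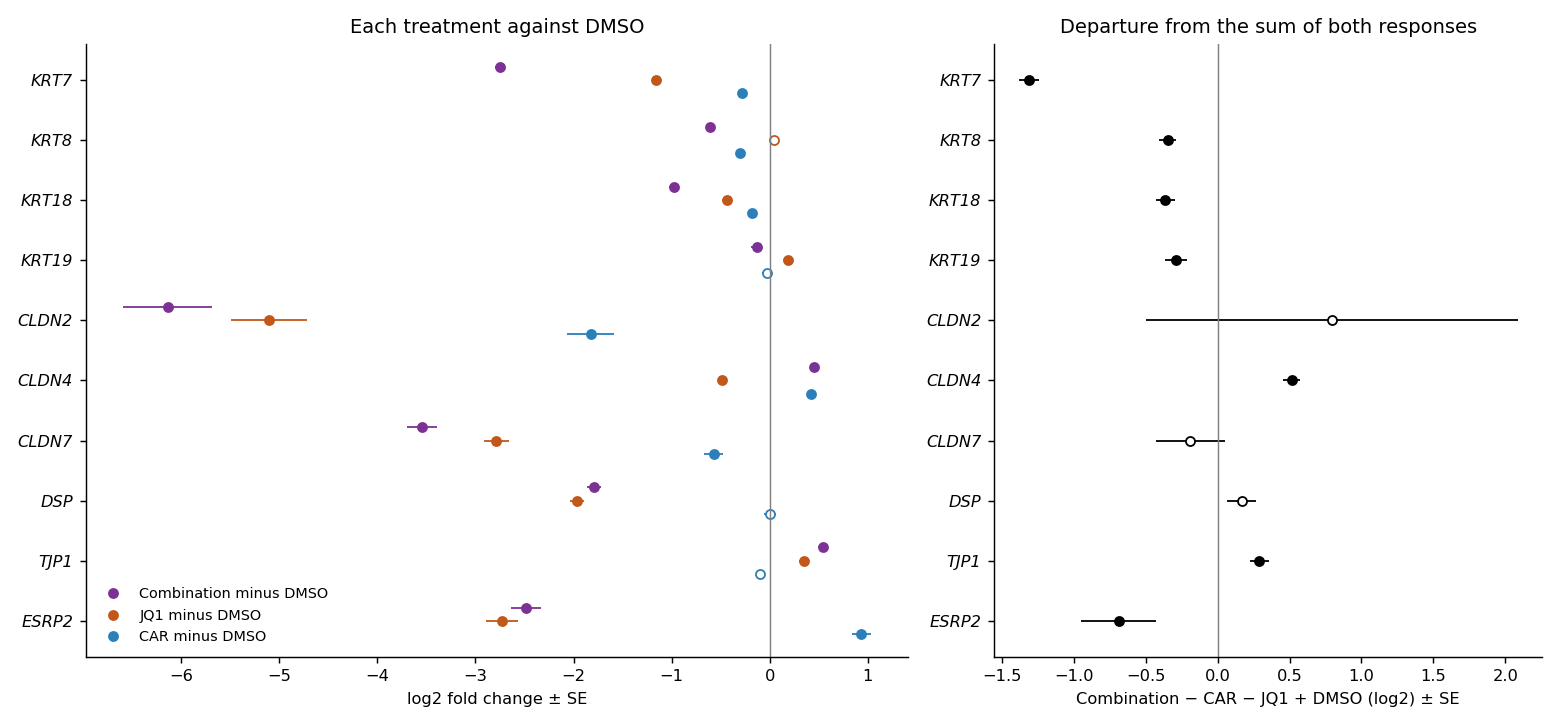
Left, log2 fold change ± SE of each gene in Combination, JQ1 and CAR against DMSO. Right, the interaction on the log2 scale ± SE. Filled points were called and open points were not. In CLDN4 the points for Combination (0.45) and CAR (0.42) lie together to the right of 0 while JQ1 (-0.49) lies to the left, and KRT7 has the most negative interaction (-1.31).

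Per kilobase of the longest transcript, KRT8 was the most abundant of the 10 in every group, at 173 ± 6.99 CPM per kilobase in Combination, 289 ± 8.14 in JQ1, 236 ± 6.25 in CAR and 305 ± 18.2 in DMSO. KRT18 came next in every group, at 115 ± 3.43 CPM per kilobase in Combination, 178 ± 6.08 in JQ1, 221 ± 5.41 in CAR and 262 ± 22.9 in DMSO. In CAR these neighbours lay closest, 236 against 221. KRT7 ranked 6 in Combination (11.3 ± 0.505 CPM per kilobase), 4 in JQ1 (36.3 ± 1.75) and 3 in CAR (69.2 ± 0.734) and DMSO (88 ± 2.34). In Combination KRT19 (47.3 ± 2.14) and CLDN4 (44.4 ± 0.969) took ranks 3 and 4 with a gap smaller than the sum of their SDs. CLDN7, ESRP2 and CLDN2 held the last 3 places in each group, with CLDN2 last in Combination at 0.0232 ± 0.0266 CPM per kilobase. The ranks were the same with the median transcript length.

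Adding CAR to JQ1 (Combination against JQ1) compares both agents together with JQ-1 alone. It lowered 5 of the 10 genes and raised 2, where 25.9% of all tested genes were lower and 26% higher (51.9% called). KRT7 fell 3.02-fold (log2 -1.59 ± 0.05, adjusted p = 5.76e-16), KRT8 1.57-fold (-0.65 ± 0.04, adjusted p = 3.91e-11), KRT18 by 0.54 ± 0.05 on the log2 scale (adjusted p = 6.26e-09) and KRT19 by 0.32 ± 0.05 (adjusted p = 2.66e-05), so each of the 4 keratins was lower in Combination than in JQ1. CLDN4 rose 1.92-fold (0.94 ± 0.04, adjusted p = 8.95e-14). CLDN7 was lower (-0.76 ± 0.22, adjusted p = 0.00633), a call lost without Combination replicate 2 (-0.58, adjusted p = 0.052). TJP1 was higher (0.20 ± 0.05, adjusted p = 0.00164), a call lost with total count scaling (0.11, adjusted p = 0.0559). DSP (0.17 ± 0.08, adjusted p = 0.0864), ESRP2 (0.25 ± 0.24, adjusted p = 0.444) and CLDN2 (4 summed counts in Combination and 9 in JQ1) did not pass. DSP was called higher without DMSO replicate 2 (0.17, adjusted p = 0.042), without DMSO replicate 3 (0.17, adjusted p = 0.00828) and in a fit to Combination and JQ1 alone (0.17, adjusted p = 0.014). With total count scaling 32.9% of all called genes were higher, in place of 50.1%.

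Adding JQ1 to CAR (Combination against CAR) lowered 7 of the 10 genes and raised 1, where 43% of all tested genes were lower and 42.4% higher (85.4% called). ESRP2 fell by 3.42 ± 0.14 on the log2 scale (adjusted p = 7.5e-16), CLDN7 by 2.98 ± 0.16 (adjusted p = 8.09e-14), KRT7 by 2.47 ± 0.05 (adjusted p = 5.78e-21), DSP by 1.80 ± 0.07 (adjusted p = 3.82e-15), KRT18 by 0.80 ± 0.05 (adjusted p = 6.15e-13) and KRT8 by 0.30 ± 0.04 (adjusted p = 7.01e-07). CLDN2 fell too (adjusted p = 1.59e-06), with 4 summed counts in Combination and 99 in CAR, and a fitted change of -4.31, or -5.56 without Combination replicate 1. TJP1 rose by 0.64 ± 0.05 (adjusted p = 3.98e-11). CLDN4 did not pass (0.03 ± 0.04, adjusted p = 0.546), and its sign turned with upper-quartile scaling (-0.01) and with total count scaling, where it was called lower (-0.12, adjusted p = 0.0102). KRT19 (-0.10 ± 0.05, adjusted p = 0.0749) was called lower with total count scaling (-0.24), with upper-quartile scaling (-0.14, adjusted p = 0.0203), in a fit to Combination and CAR alone (-0.11, adjusted p = 0.0112), without DMSO replicate 3 (-0.10) and without Combination replicate 2 (-0.15).

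The interaction asks whether Combination differed from the sum of both single responses on the log2 scale. It was called in 7 of the 10 genes, 5 below the sum and 2 above it, where 18.2% of all tested genes lay below it and 20.1% above it (38.3% called). All 4 keratins lay below the sum: KRT7 by -1.31 ± 0.07 (adjusted p = 2.01e-11), KRT18 by -0.36 ± 0.07 (adjusted p = 0.000213), KRT8 by -0.35 ± 0.06 (adjusted p = 9.6e-05) and KRT19 by -0.29 ± 0.07 (adjusted p = 0.00362). CLDN4 (0.51 ± 0.06, adjusted p = 8.28e-07) and TJP1 (0.29 ± 0.07, adjusted p = 0.00203) lay above it. ESRP2 lay below it (-0.69 ± 0.26, adjusted p = 0.0396), a call lost without DMSO replicate 1 or 3, CAR replicate 3, JQ1 replicate 1 or 2, or Combination replicate 1 or 2 (-0.71 to -0.52, adjusted p = 0.0514 to 0.218) and with DESeq2 (adjusted p = 0.0835). CLDN7 (-0.19 ± 0.24), DSP (0.17 ± 0.10) and CLDN2 (0.79 ± 1.29) did not pass. DSP passed as above the sum without DMSO replicate 3 (0.26, adjusted p = 0.00215).

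Other genes of the same structures were read from fixed lists, chosen with earlier results of these data known. Of 16 other keratins 13 were in the tables and 5 could be tested, and all 5 were lower in Combination and in JQ1, and 3 in CAR. Over all tested genes 42.8% were called lower in Combination, 42.2% in JQ1 and 30.1% in CAR. KRT80, a filament keratin at the cell edge, averaged 25 ± 2.11 CPM in Combination, 41.3 ± 1.09 CPM in JQ1, 159.6 ± 1.54 CPM in CAR and 255 ± 14.5 CPM in DMSO, a fall of 3.15 ± 0.06 on the log2 scale in Combination (adjusted p = 8.14e-22). The hair-type keratins KRT81 (-2.11 ± 0.15) and KRT86 (-1.71 ± 0.27) and the basal keratin KRT15 (-2.30 ± 0.27) fell too in Combination. KRT81 and KRT86 are closely similar in sequence, so reads may be split between them, and their calls in JQ1 were lost without DMSO replicate 3 (-0.16 and -0.36). The call of KRT81 in JQ1 was also lost without JQ1 replicate 2 (-0.28), and that of KRT86 without DMSO replicate 1, CAR replicate 2, JQ1 replicate 1 or 3, or any Combination replicate (-0.51 to -0.35, adjusted p = 0.0527 to 0.187). The call of KRT15 in CAR was lost without DMSO replicate 3, CAR replicate 1 or CAR replicate 2 (-0.43 to -0.55) and with DESeq2 (-0.60, adjusted p = 0.0575). The call of KRT86 in JQ1 was also lost with DESeq2 (adjusted p = 0.118), with no filter on low counts (adjusted p = 0.0664) and with the length correction (adjusted p = 0.078).

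Of 28 other tight junction genes 19 were tested, with 8 higher and 9 lower in Combination, 9 and 10 in JQ1, and 3 and 10 in CAR. For this and the other lists the shares called over all tested genes were 85.4% in Combination, 83.7% in JQ1 and 57.3% in CAR, and 17 of 19 tight junction genes were called in Combination, 19 of 19 in JQ1 and 13 of 19 in CAR. The membrane protein MARVELD1 (-1.52 ± 0.07) and LSR (4.01-fold), which recruits partners to contacts of 3 cells, fell in Combination. The plaque protein cingulin (CGN) rose to 14.7 ± 0.384 CPM in Combination and 13.5 ± 0.623 CPM in JQ1, against 5.43 ± 0.0451 CPM in DMSO, and the polarity scaffold PALS1 rose by 0.65 ± 0.04 in Combination and 0.91 ± 0.04 in JQ1. Of 16 other desmosome and plakin genes 11 were tested, with 5 higher and 6 lower in Combination, 4 and 5 in JQ1, and 2 and 7 in CAR. The desmosomal cadherin DSC2 fell 16.2-fold in Combination, to 1.14 ± 0.195 CPM, against 21.4 ± 0.919 CPM in DMSO. The cornified-envelope plakin EVPL (-2.40 ± 0.06) and plakophilin 3 (PKP3, -2.70 ± 0.13) fell as well, while plakophilin 2 (PKP2, 0.60 ± 0.05) and plakophilin 4 (PKP4, 0.29 ± 0.03) rose. Periplakin (PPL) fell to 10.2 ± 1.34 CPM in Combination and 5.5 ± 1.1 CPM in CAR, and stood at 24.4 ± 1.05 CPM in JQ1 and 24.9 ± 1.17 CPM in DMSO. The small fall of PKP2 in CAR (-0.18) was not called without CAR replicate 1 (-0.14, adjusted p = 0.0667).

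Of 10 adherens junction genes 7 were tested, with 2 higher and 3 lower in Combination, 4 and 3 in JQ1, and 1 and 4 in CAR, where 85.4%, 83.7% and 57.3% of all tested genes were called in Combination, JQ1 and CAR. EPCAM fell in Combination (-2.29 ± 0.12) and in JQ1 (-2.27 ± 0.11), the nectin NECTIN1 rose (1.35 ± 0.08 and 1.18 ± 0.08), the nectin-binding scaffold AFDN rose (0.44 ± 0.05 and 0.72 ± 0.05), and beta-catenin (CTNNB1) moved little (-0.15 ± 0.03 and -0.12 ± 0.03). Of 15 epithelial transcription and splicing regulators 8 were tested, with 2 higher and 6 lower in both Combination and JQ1, and 1 and 1 in CAR. The luminal factor GATA3 fell to 1.29 ± 0.258 CPM in Combination and 2.4 ± 0.311 CPM in JQ1, against 8.06 ± 0.0996 CPM in CAR and 8.26 ± 0.399 CPM in DMSO, and the ETS factor EHF fell by 2.46 ± 0.24 in Combination. KLF4 fell in Combination (-1.19 ± 0.11) and JQ1 (-1.55 ± 0.12) and rose in CAR (0.74 ± 0.09), the directions that ESRP2 took. KLF5 (0.78 ± 0.05) and GRHL1 (0.88 ± 0.18) rose in Combination.

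**Figure D4:**
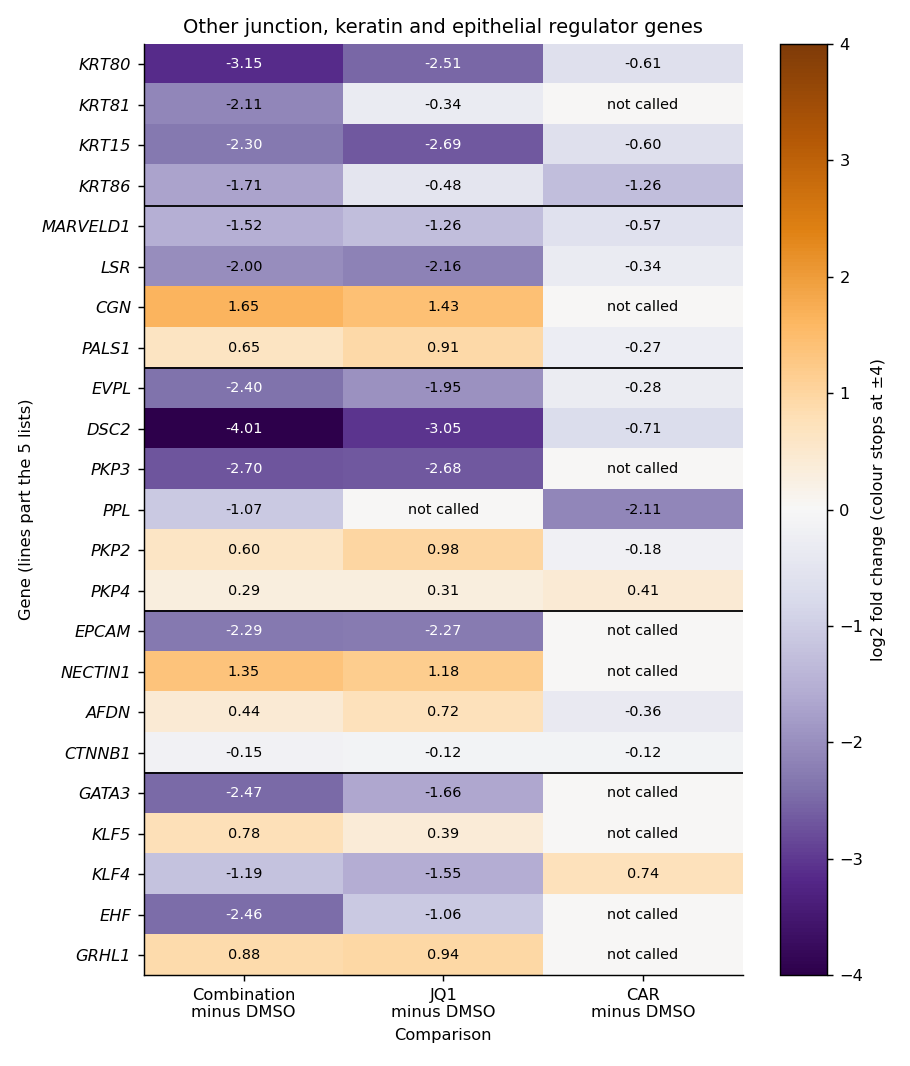
Log2 fold change of the genes named from the 5 lists (rows, lists parted by lines) in Combination, JQ1 and CAR against DMSO (columns), purple for lower and orange for higher, with uncalled cells left pale. DSC2, KRT80 and PKP3 are darkest in Combination, CGN and NECTIN1 are orange in Combination and JQ1, and PPL is lower in Combination and CAR.

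By closeness of the 3 log2 changes against DMSO (Euclidean distance over genes of at least 5 CPM in some group, a description), the genes nearest to KRT8 among 10877 were ZNF175, CCDC186 and APBB1 (distances 0.0382 to 0.0797), and its filament partner KRT18 ranked 1248 (distance 0.618). The nearest to KRT18 were ZNF772, PDLIM1 and EVL (0.0527 to 0.0903), with KRT8 at rank 1135. The nearest to CLDN2 were SIGIRR, RHOJ and SLCO4A1 (0.323 to 1.37), and CLDN7 ranked 191. The changes of CLDN2 rest on few counts, so its neighbours are uncertain. Its log2 change in JQ1 was -5.11, but -6.58 without JQ1 replicate 2 and -4.51 without JQ1 replicate 1. In Combination it was -6.14, but -7.38 without Combination replicate 1.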

How the data were processed

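Messenger RNA of MDA-MB-231 was sequenced in 12 libraries made with a stranded kit, per the labels' protocols. The authors deposited a table of raw whole-number counts by gene symbol for each library. Trimmomatic, HISAT2, HTSeq and hg38 were used per the submitters' processing notes. Their versions, the annotation and the strand setting are not given in the sources. Groups and replicate numbers came from sample titles.

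The counts went into edgeR 4.0.16 (R 4.3.3): filterByExpr (minimum count 10, total 15), TMM factors (0.92 to 1.08), and a robust quasi-likelihood fit to all 12 libraries with 1 coefficient per group (8 residual degrees of freedom). The 6 contrasts were adjusted by Benjamini-Hochberg over all 12645 tested genes. SEs were taken from the F statistic. The pipeline was tested on simulated data, in which every gene had the same spread and no library had a length trend. Intervals and floors (3 counts, 0.152 to 0.172 CPM) reflect counting error alone. They leave out the spread between libraries and take each read as a separate molecule, which reads copied by PCR are not.

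Positions and lengths came from GENCODE 29 (GRCh38), matched by symbol (97.3% of symbols), and promoters from RefSeq. All 10 chosen genes were named. From each list, the text names at most 4 genes, those of smallest adjusted p in Combination against DMSO, plus at most 2 called against the majority. The members, lists, rules and motifs were chosen with earlier results of these data known. A gene that this rule picks is not reported here. Alternatives were other scalings, filters, DESeq2 1.42.0, fits to the compared groups alone, a replicate block, a length correction and leaving out each library.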

Additional observations from a re-analysis of the deposited data

Results flagged for a closer look

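In 7 of the 10 genes the response to CAR in the presence of JQ-1 differed from that in its absence, by the interaction term of edgeR's quasi-likelihood test. Its log2 value (Combination minus CAR minus JQ1 plus DMSO) was -1.31 for KRT7, -0.35 for KRT8, -0.36 for KRT18, -0.29 for KRT19, 0.51 for CLDN4, 0.29 for TJP1 and -0.69 for ESRP2. Such a call was made for 38.3% of all tested genes. The call of ESRP2 was lost with DESeq2 (adjusted p = 0.0835), with a replicate block (adjusted p = 0.0532) and on leaving out some single libraries.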

How the results depend on the processing

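Each change of the 10 genes in the 6 contrasts was recomputed under 22 alternatives. Of 1309 recomputed values 1258 kept their direction and their side of the threshold, 15 lost a call, 22 gained one and 14 turned in sign. With total count scaling the number of these genes called higher was 1 in place of 2 in JQ1 against DMSO and 1 in place of 2 in Combination against JQ1. The changes that turned in sign were small or rested on few counts. DSP in CAR against DMSO turned to 0.00 with size factors (-0.00146), with a filter of 1 CPM in 3 libraries (-0.00148) and with DESeq2 (-0.00195), to -0.0588 with totals, to -0.0255 with upper quartiles, to -0.0839 without DMSO replicate 3 and to -0.00619 without CAR replicate 2, and leaving out single libraries gave -0.0839 to 0.0791. KRT19 in CAR against DMSO turned to 0.033 without DMSO replicate 3, in a range of -0.0722 to 0.033. KRT8 in JQ1 against DMSO turned to -0.0771 with totals and -0.0177 with upper quartiles. CLDN4 in Combination against CAR turned to -0.116 with totals and -0.0134 with upper quartiles. CLDN2 turned to 0.44 in Combination against JQ1 without JQ1 replicate 2 (range -2.27 to 0.44), and to -0.45 in the interaction without Combination replicate 1 (range -0.45 to 2.27). The cause was not tested. Leaving out 1 library at a time gave 7 to 8 of the 10 genes lower and 2 higher in Combination against DMSO, 7 lower and 2 to 3 higher in JQ1 against DMSO, and 5 to 6 lower and 2 higher in CAR against DMSO.

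With the length correction DSP was called higher in Combination against JQ1 (0.27) and in the interaction (0.23), with and without the block. KRT8 was called higher in JQ1 against DMSO (0.10) and KRT19 lower in CAR against DMSO (-0.10), again with and without the block. The correction also removes a length trend shared by a treatment group, so these calls cannot be tied to DMSO replicate 3 alone. The replicate numbers share nothing that the labels name. Libraries of the same number in different groups had deviations correlated at -0.045 to 0.0564 over 18 pairs, and 2 of 12 libraries correlated best with their own number, so no pairing was used. With the replicate number as a block DSP passed in Combination against JQ1 (0.17, adjusted p = 0.0443), ESRP2 did not pass in the interaction (-0.69, adjusted p = 0.0532), and KRT86 did not pass in JQ1 against DMSO (-0.48, adjusted p = 0.0515). The count of keratin pseudogenes could not be added, since the tables list 0 of them. CLDN2 in JQ1 and Combination, at 0 to 7 counts a library, is at or near the floor, and its fold is limited by depth.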
